A study of Gossypium hirsutum with 2 samples.

Results

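On the Affymetrix cotton array, 12 probe sets assigned to 11 genes carried a class III peroxidase alias. They are among 697 probe sets from 520 genes that the platform annotation assigns to a single gene each. Of the 23977 plant probe sets, 23234 have no gene assigned, so peroxidases among those could not be found. The 12 probe sets were chosen by gene alias, namely pod or POX with a number, pox, or peroxidase. Genes with an ascorbate peroxidase alias were left out. The genes were pod1, pod3, pod5, pod6, pod7, pod10, POX5 (with 2 probe sets), POX9, POX10, and a pair without a numbered alias, LOC107905931 (alias peroxidase) and LOC107951876 (aliases peroxidase and pox). A further 5 cotton genes of the gene table carry such an alias (POX2, POX3, POX4, POX6 and POX7) but had no probe set of their own in the annotation. Membership of the class rests on these aliases alone, and the arrays offer no separate check of it.

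RNA came from field-grown Upland cotton, Gossypium hirsutum, of the cultivar Acala 1517-99, which the labels call drought tolerant. The drought group is leaves of plants whose furrow irrigation was withheld, collected 9 days into that period, and the well-watered group is leaves of irrigated plants of neighbouring plots. Both groups are of the third leaf from the top, with an age given as 9 weeks, longer than the labels' own planting and harvest dates allow, and material from 3 plots at 8 plants per replicate. The files hold 1 array per group, the labels do not say whether plots were pooled, and so no replicate error or p-value exists: each difference describes 2 arrays.

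Class III peroxidases are secreted haem enzymes that form a large family in plants. They use hydrogen peroxide to oxidise phenolic compounds in the cell wall and apoplast, among them the monolignols that polymerise into lignin, and can stiffen walls by cross-linking. They can also produce reactive oxygen species in the wall, and in cotton the family has been studied in fibre growth and in defence against bacterial blight. The numbers in pod and POX aliases are names of copies and do not mark separate functions.

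The unit is the MAS5 signal, an intensity on a linear scale that Affymetrix software computes for each probe set. The median plant signal was 78.3 on the drought array and 75.6 on the well-watered array. A probe set was taken as measurable when the geometric mean of its signals reached 72.3, the median over 23977 plant probe sets. The rubisco activase gene RCA1, which marks photosynthetic leaf tissue, measured 20148 on the drought array and 16617 on the well-watered array, while the marker lists for xylem, phloem and guard cells matched 0 probe sets. The 3 trichome and fibre markers, all measurable, had a median log2 difference of -0.64. E6 measured 92.3 on the drought array and 216 on the well-watered array (-1.23), HOX3 66.8 on the drought array and 104 on the well-watered array (-0.64), and GHTTG1 447 on the drought array and 341 on the well-watered array (0.39). The part of these markers in the peroxidase differences was not tested. The ratio of 3-prime to 5-prime actin control signal, which follows RNA quality, was 4.09 on the drought array and 14.1 on the well-watered array, and its part in the results below was not tested. In whole leaves, fewer cells of a type and less transcript per cell cannot be told apart.

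In drought leaves, 4 of the 6 measurable peroxidase probe sets had lower signals and 2 had higher signals, and 0 of 6 differed by 2-fold. The lower ones were POX9, pod10, POX10 and LOC107905931, and the higher ones pod7 and pod1. Scaling to spike-in controls turned pod1, giving 5 lower and 1 higher. That scaling lowers every value alike, to a median of -0.25 over all measurable probe sets. The share of all measurable probe sets lower under it was not computed, so this count has no background of its own. As deposited, 50.4% of all 11989 measurable probe sets were lower and 49.6% higher. At least 2-fold lower were 2.56% and at least 2-fold higher 1.82%, so a count of 0 in 6 lies near the array's background. The median log2 difference, drought minus well-watered, was -0.25 over the 6 peroxidase probe sets, with a range of -0.76 to 0.99, against -0.01 over all measurable probe sets, whose 5th and 95th percentiles were -0.77 and 0.69. The extremes, POX9 and pod7, were both in the dimmest of 3 equal classes of mean signal, where the 5th and 95th percentiles were wider, at -1.06 and 0.94.

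**Figure D1:**
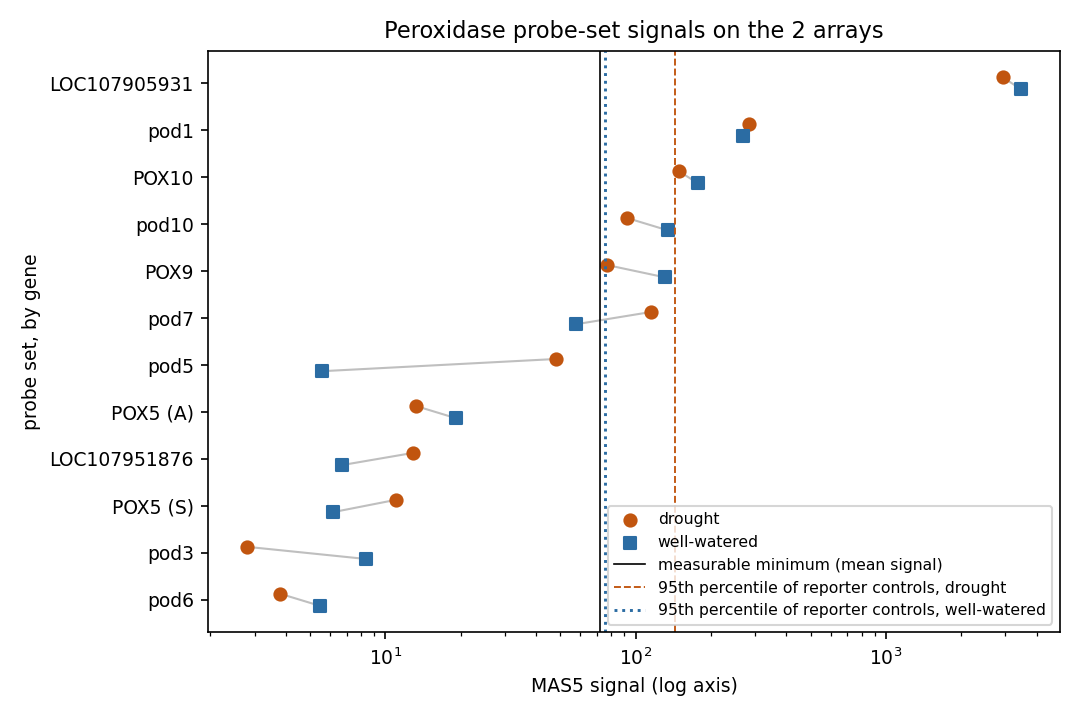
MAS5 signal (log axis) of each peroxidase probe set on the drought array (circles) and the well-watered array (squares), 1 array each, ordered by mean signal. The solid line marks the measurable minimum of 72.3 and the broken lines the 95th percentile of reporter controls, 144 on the drought array and 75.7 on the well-watered array. The 6 lower probe sets all lie below these lines on both arrays.

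LOC107905931 had the brightest of the peroxidase probe sets, with a signal of 2924 in drought leaves and 3462 in well-watered leaves. Its log2 difference was -0.24, or 1.18-fold lower in drought. It was brighter than 97.4% of plant probe sets on the drought array and 97.9% on the well-watered array, and it stood far above every one of 51 reporter controls, which represent sequences that leaf RNA should lack. It was the only peroxidase probe set in the brightest of 3 equal classes of measurable signal, which began at 415. A probe-set signal depends on how well its probes bind as well as on the transcript, so these positions describe brightness and give no order of transcript levels between genes. The ID of this probe set ends in _s_at, which marks probes shared by several transcripts, so related copies may add to it.

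pod1 and POX10 lay in the middle class. For pod1 the signal was 285 in drought leaves and 269 in well-watered leaves, a log2 difference of 0.08. Its sign followed the scaling: it was positive under median centring (0.03), quantile normalization (0.13) and lowess centring (0.12), and -0.16 against the spike-in controls. For POX10 the signals were 148.5 in drought leaves and 177 in well-watered leaves, a log2 difference of -0.25 that stayed negative under each of the 5 other scalings, from -0.50 to -0.21. For scale, the 60 pairs of measurable probe sets assigned to the same gene disagreed with a spread of 0.44 per probe set on the log2 scale (root mean square), and by a median of 0.25 within a pair. The differences of pod1, POX10 and LOC107905931 were all smaller than that spread, so none of these is distinguishable from disagreement between probe sets of a gene. The pairs cover all brightness classes together.

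pod10, POX9 and pod7 belonged to the dimmest class, which ran from 72.3 to 152. The signal of pod10 was 92.5 in drought leaves and 134 in well-watered leaves (log2 difference -0.53). That of POX9 was 76.8 in drought leaves and 130.3 in well-watered leaves (log2 difference -0.76). Both were lower in drought leaves under every scaling tried, pod10 from -0.78 to -0.43 and POX9 from -1.01 to -0.60, and POX9 passed 2-fold against the spike-in controls alone. Both values lay between the 5th and 95th percentiles of the dimmest class, and with drought signals not above the reporter limit their sizes are imprecise. Both probe sets are of the shared _s_at kind, and both IDs mark the A orientation.

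pod7 had a signal of 114.9 in drought leaves and 57.8 in well-watered leaves, a log2 difference of 0.99. It reached the measurable minimum through its drought signal, since 57.8 is under 72.3, and neither signal was above the 95th percentile of the reporter controls, so the size of this difference is imprecise. It stayed positive under the 5 other scalings, at 0.75 with a pseudocount or against the spike-in controls and at up to 0.97 otherwise. Its probe set carries no suffix for shared probes. At a 1.5-fold threshold the dimmest class held 1 higher peroxidase probe set, pod7, and 1 lower, POX9, of 3. In that class 14.9% of all 3996 probe sets were at least 1.5-fold higher and 15.8% at least 1.5-fold lower, so 1.5-fold differences were common at such signals. As deposited, the difference of pod7 was above the 95th percentile of that class, 0.94, and that of all measurable probe sets, 0.69. Because pod7 entered both sets through its drought signal, these positions cannot serve as support for a difference. At least 2-fold higher were 166 of the 3996. pod7 was also the measurable peroxidase nearest to the minimum, with a mean signal of 81.5, and the next below it was pod5 with 16.4.

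**Figure D2:**
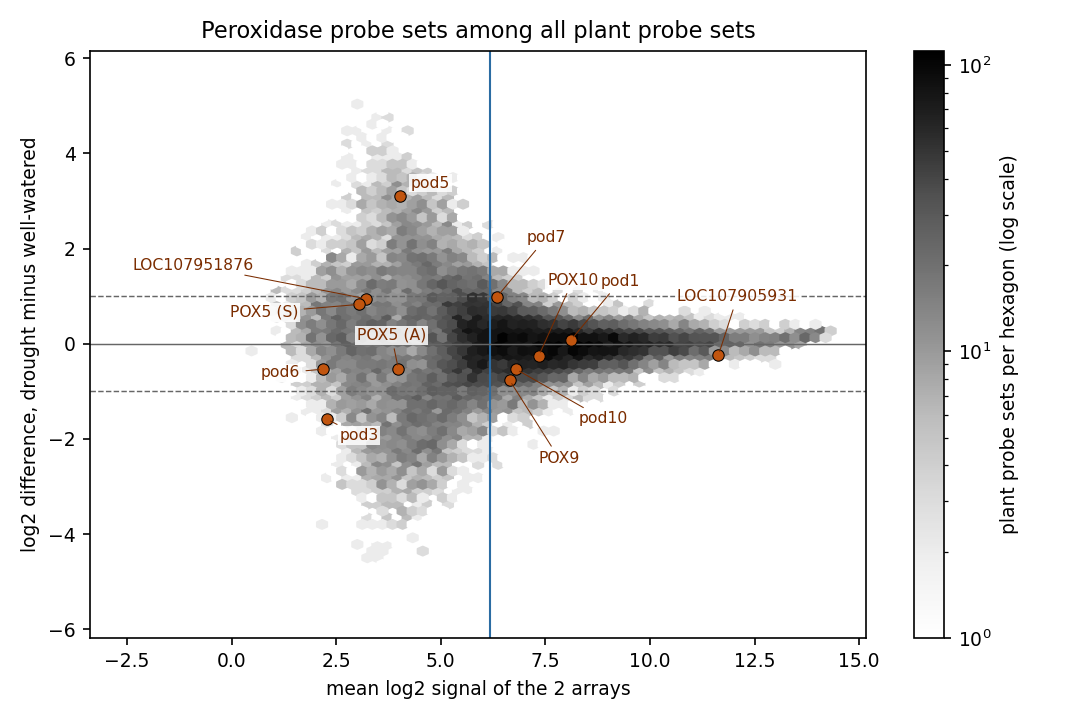
Log2 difference, drought minus well-watered (vertical), against mean log2 signal of the 2 arrays (horizontal) for all plant probe sets (grey hexagons, shaded by count on a log scale) and the 12 peroxidase probe sets (circles). The vertical line is the measurable minimum and the dashed lines are 2-fold. All 6 measurable peroxidases lie within 2-fold, as do all measurable plant probe sets but 2.56% (lower) and 1.82% (higher). The dimmer peroxidases spread from -1.58 to 3.11 where the whole array spreads too.

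The reporter controls show where these dim signals stood relative to background. On the drought array 4 of the 51 reporters were brighter than pod7, 5 were brighter than pod10 and 9 were brighter than POX9. On the well-watered array 7 were brighter than pod7, and 0 were brighter than pod10 or POX9. The 95th percentile of the reporters was 144 on the drought array and 75.7 on the well-watered array. The measurable minimum of 72.3 is under both, so a probe set called measurable need not stand above the reporters. LOC107905931, pod1 and POX10 were above it on both arrays, pod10 and POX9 on the well-watered array alone, and pod7 on neither. The brightest reporters were thus higher on the array on which pod10 and POX9 were lower, and the part of this in their differences was not tested.

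In the authors' deposited table of 110 probe sets, labelled differentially expressed, 0 of the 12 peroxidase probe sets appeared. It holds 110 of the 24132 probe sets on the array, so few probe sets of any kind appear in it. The Affymetrix detection calls for the peroxidases are therefore not analysed here. The calls of that table give a scale for dim signals only among its own 110 probe sets, which were listed for differing between these same arrays. On the drought array 56 of them were called absent and 52 present. On the well-watered array 6 were called absent and 104 present. Whether the ranges below hold for the array at large was not tested. In the authors' deposited table, signals called absent reached 235 on the drought array and 90.2 on the well-watered array. In the authors' deposited table, signals called present began at 56.2 on the drought array and 43.6 on the well-watered array. The drought signals of POX10, pod7, pod10 and POX9 all fell in the range where both calls occurred in that table, as did the well-watered signal of pod7. This position gives no detection call for the peroxidases themselves.

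The other 6 probe sets, of 5 genes, lay below the measurable minimum, and 3 of them were higher and 3 lower in drought leaves. Of all 11988 plant probe sets below the minimum, 53.8% were higher and 45.8% lower. 2 of the 6 passed 2-fold, pod5 upwards and pod3 downwards, where 23.2% of such dim probe sets were at least 2-fold higher and 21.1% at least 2-fold lower. Dim peroxidases therefore passed 2-fold about as often as dim probe sets in general.

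pod5 had a signal of 48.2 in drought leaves and 5.6 in well-watered leaves, a log2 difference of 3.11. Its mean signal of 16.4 was below the measurable minimum and both signals were under the reporter limits, so the size of this difference is not measurable. On the drought array 12 of 51 reporters were brighter than pod5 and on the well-watered array 36 were. With a pseudocount of 26.4, the 25th percentile of plant signals, its difference was 1.22. Differences of at least 8-fold in this direction, a size chosen after this value was seen, occurred in 2.96% of the probe sets below the minimum. pod5 was higher in drought leaves under each of the 4 other scalings that gave it a value, but both signals lay where reporters without a target also lay.

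pod3 had a signal of 2.8 in drought leaves and 8.4 in well-watered leaves (log2 difference -1.58). All 51 reporters were brighter than pod3 on the drought array, and 30 were on the well-watered array. Its difference shrank to -0.25 with the pseudocount, and decreases of at least 3-fold occurred in 12.5% of dim probe sets. pod6 had 3.8 in drought leaves and 5.5 in well-watered leaves (-0.53), with 49 reporters brighter on the drought array and 36 on the well-watered array. Neither gene was detectable above reporter background on either array at these signals.

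LOC107951876 had a signal of 12.9 in drought leaves and 6.7 in well-watered leaves (log2 difference 0.95, or 0.25 with the pseudocount). Its aliases resemble those of LOC107905931, but its signals were dimmer than 30 of the 51 reporters on the drought array and 34 on the well-watered array. POX5 was the only peroxidase gene with a pair of probe sets, and their IDs mark opposite orientations. The probe set of the A orientation measured 13.2 in drought leaves and 19.1 in well-watered leaves (-0.53). That of the S orientation measured 11 in drought leaves and 6.2 in well-watered leaves (0.83). The pair therefore went opposite ways, and with the pseudocount the differences were -0.20 and 0.20.

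**Figure D3:**
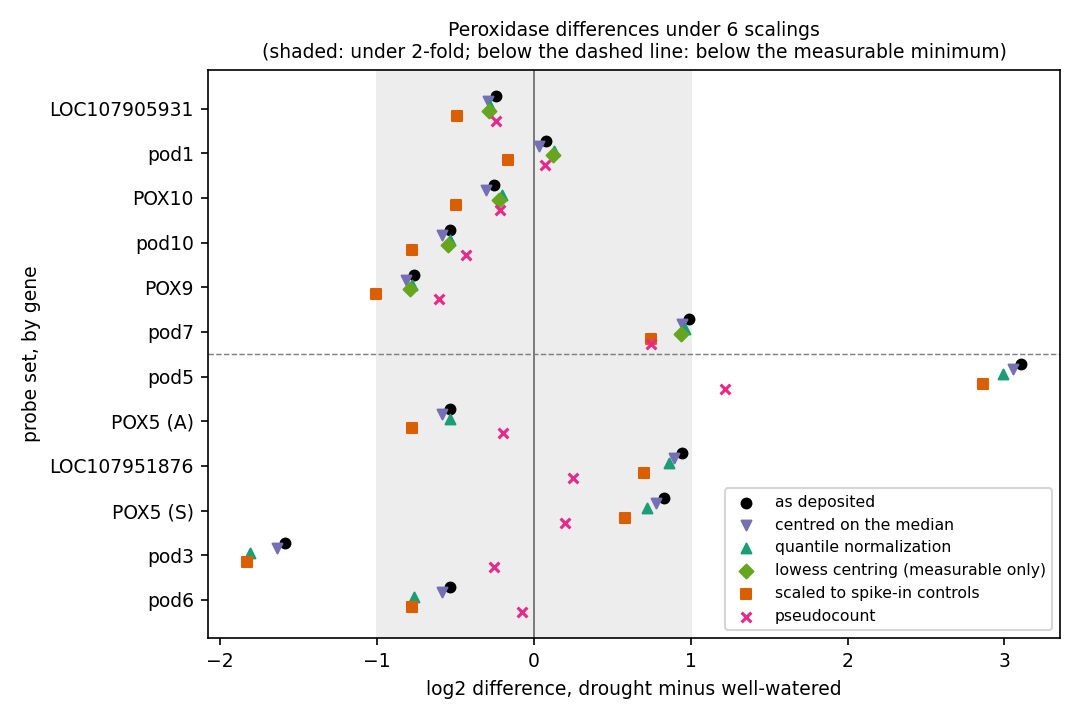
Log2 difference, drought minus well-watered, of each peroxidase probe set under 6 scalings (symbols). The shaded band is under 2-fold, and probe sets below the dashed line are below the measurable minimum, where lowess centring was not computed. Among measurable probe sets only pod1 changes sign (to -0.16 against the spike-in controls), and POX9 leaves the band at -1.01.

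Position and probe design were compared next. In the order of protein-coding genes of the assembly Gossypium_hirsutum_v2.1, 0 pairs of the 11 genes were direct neighbours, so none of these genes sat side by side. 4 of the 12 probe sets ended in _s_at: LOC107905931, pod10, POX9 and LOC107951876. Of these, the 3 measurable ones were all lower in drought leaves, beside 50.4% lower over all measurable probe sets. The share among all measurable shared probe sets was not computed, so this count has no background of its own kind. The 3 measurable probe sets without that suffix were POX10 at -0.25, pod1 at 0.08 and pod7 at 0.99. Without shared probe sets the median was therefore the value of pod1, 0.08, whose sign followed the scaling. The part of probe design in these differences was not tested.

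Measurable genes listed as sources of hydrogen peroxide, the oxidant of class III peroxidases, had small differences of both signs. The respiratory burst oxidase alias RBOH on this list matched no probe set. The signals do not show in which cell compartment the products of these genes act. Of 5 probe sets on this list 4 were measurable, and 3 of the 4 were lower and 1 higher in drought leaves, beside the 50.4% lower and 49.6% higher over all measurable probe sets. All 4 differences were smaller than the spread of 0.44 between probe sets of a gene. The germin-like protein gene Glp1 measured 6010 in drought leaves and 5160 in well-watered leaves (log2 difference 0.22). Superoxide dismutases convert superoxide to hydrogen peroxide, and the iron form FeSOD measured 123 in drought leaves and 164 in well-watered leaves (-0.41). The manganese form MnSOD measured 437 in drought leaves and 475 in well-watered leaves (-0.12). The copper/zinc form CSD2a/CSD2b measured 8917 in drought leaves and 9149 in well-watered leaves (-0.04). A dim probe set of MnSOD gave 14.3 in drought leaves and 35.9 in well-watered leaves (-1.33). Against the spike-in controls Glp1 was lower as well (-0.02).

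For hydrogen peroxide removal by other enzymes, the signals of 4 of 4 probe sets were higher in drought leaves as deposited, where 49.6% of all measurable probe sets were, and 0 of 4 were higher against the spike-in controls, which shift every value by the same -0.24. All 4 differences were under the spread of 0.44, and sAPX was added to this list after it was seen. The catalase gene CAT2 gave a log2 difference of 0.21, the ascorbate peroxidase genes gAPX 0.21 and sAPX 0.11, and DHAR1, which encodes an enzyme that recycles ascorbate, 0.09. The signals of sAPX were 288 in drought leaves and 267 in well-watered leaves. Those of DHAR1 were 1316 in drought leaves and 1238 in well-watered leaves. The median was 0.16 for these 4 and -0.08 for the 4 measurable source probe sets, against -0.25 for the peroxidases. Without probe sets ending in _x_at or _s_at the peroxidase median was 0.08. Most removal and source probe sets were in the brightest class, where LOC107905931 was the only peroxidase, so these medians compare sets of unlike brightness.

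Monolignol supply, which provides a substrate of class III peroxidases, was represented by 2 measurable probe sets. Both were lower in drought leaves as deposited, where 50.4% of all measurable probe sets were. CCR1, the cinnamoyl-CoA reductase gene, measured 115 in drought leaves and 172 in well-watered leaves (log2 difference -0.58). It was in the dimmest class and its drought signal was under the reporter limit of 144, so the size of its difference is imprecise. CCoAMOT2, a caffeoyl-CoA methyltransferase gene, measured 444 in drought leaves and 450.4 in well-watered leaves (-0.02), and turned positive by 0.01 under quantile normalization and lowess centring. The list of laccases, dirigent proteins and polyphenol oxidases matched 0 probe sets by alias. All 10 measurable probe sets of these lists were under 2-fold, as were all 6 measurable peroxidases. Of all measurable probe sets only 2.56% were at least 2-fold lower and 1.82% at least 2-fold higher, so both counts lie near the array's background.

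**Figure D4:**
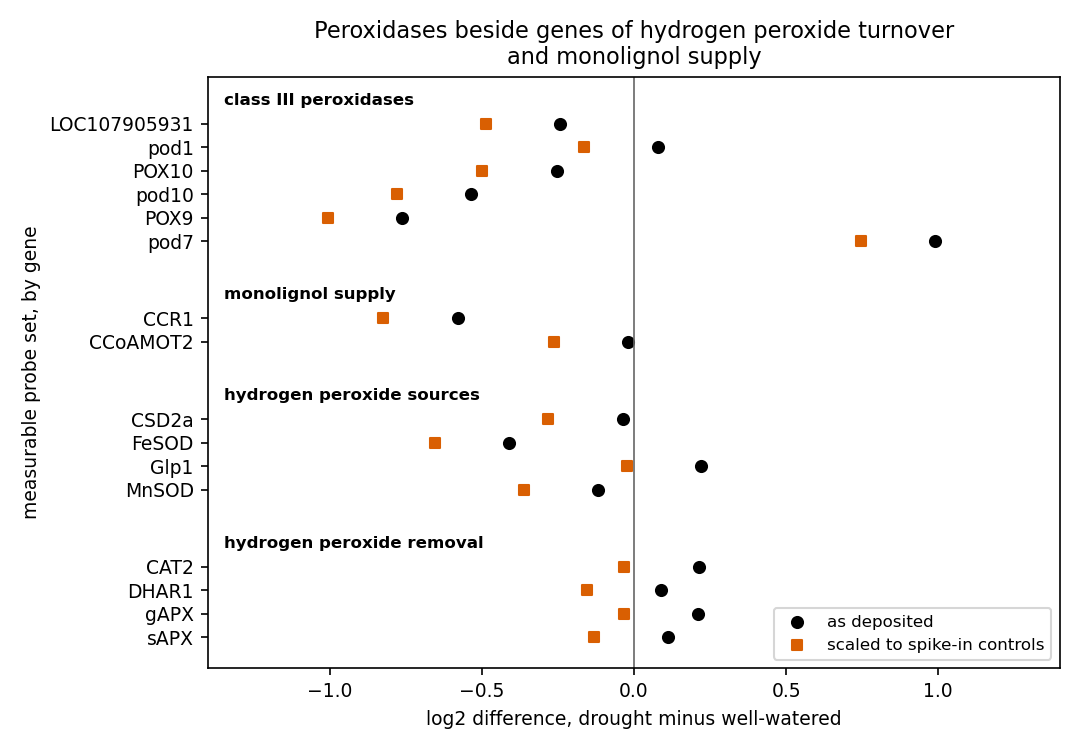
Log2 difference, drought minus well-watered, of measurable probe sets of the peroxidases and of 3 lists around them, as deposited (circles) and scaled to spike-in controls (squares). The peroxidases span -0.76 to 0.99 as deposited, and all 10 probe sets of the other lists lie between -0.58 and 0.22.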

How the data were processed

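The authors deposited linear intensity values for 2 arrays; the submitters' processing notes name GCOS and MAS5, with versions not given in the sources used here. A smaller table deposited by the authors, of 110 probe sets, gives signals, detection calls and a detection p-value per array, per the file headers. Plant probe sets (23977 of 24132) were compared as log2(drought) minus log2(well-watered), with Python 3.11.15 and pandas 2.3.3 and no pseudocount. With 1 array per group no test was run, and the number of arrays limits the precision. Of the annotated probe sets, 697 have 1 gene, 46 several and 23234 none; aliases came by gene ID from the RefSeq gene table of Gossypium_hirsutum_v2.1, and of its positions only the gene order was used; no sequences were. The cre reporter was left out of the reporter controls. Every peroxidase probe set was named. Lists were matched on whole aliases; sAPX was added after it was seen. Members and lists were chosen with earlier results of these data known. Other scalings were median centring, quantile normalization, lowess (span 0.3, statsmodels 0.14.6), 27 spike-in probe sets, which shifted the median by -0.24, and a pseudocount. The calculation was tested on simulated data.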

Additional observations from a re-analysis of the deposited data

How the results depend on the processing

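Under the 5 other scalings, 54 differences of single peroxidase probe sets were recomputed, and 1 had the other sign, pod1 against the spike-in controls. 5 moved by more than 0.44, all below the measurable minimum and all with the pseudocount, and lowess gave no value there. Against the spike-in controls the measurable peroxidases had 1 higher, and 1 was past 2-fold (POX9), the lists around them had 0 higher and 10 lower instead of 5 and 5 (by construction, since this scaling lowers every value alike), and 0.859% of measurable probe sets were 2-fold higher and 5.20% lower. With the pseudocount these shares were 0.918% and 1.48%. Without a filter the peroxidases had 5 higher and 7 lower with 2 past 2-fold, and the shares were 12.5% and 11.8%. Filtering at the 75th percentile left 1 higher and 1 lower, 3 lower in the lists, and 0.40% and 0.717%. Filtering on both arrays removed pod7 and left 1 higher, with 0.753% and 1.39%. Without probe sets ending in _x_at or _s_at 1 was lower. At 1.5-fold the shares were 7.32% and 9.06%, and at 3-fold 0.259% and 0.425%. The causes of these shifts were not tested beyond what each setting removes by construction. No paired analysis was possible because each group has 1 array. Dim signal limits pod7, pod10 and POX9, and makes the values of pod3, pod5, pod6, POX5 and LOC107951876 imprecise.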
